A study of Homo sapiens with 4 samples.

Results

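Genes of the mitochondrial carrier family (SLC25A) and of the translocases of the inner and outer mitochondrial membrane (TIMM and TOMM) were followed in 92.1, an established human line of uveal melanoma, a tumour of the eye's pigment cells. Members were taken by symbol alone: every gene with a value whose current symbol starts with SLC25A, TIMM or TOMM. There were 64 of 11650 genes with a value, 39 carriers and 25 import genes. Of protein-coding genes with such symbols, 9 carriers (SLC25A2, SLC25A18, SLC25A31, SLC25A34, SLC25A41, SLC25A45, SLC25A47, SLC25A48 and SLC25A52) and TOMM20L had no FPKM value and were not analysed here. The study has 4 RNA-seq libraries, 2 of 92.1 parental cells labelled Ctrl and 2 of 92.1 resistant cells labelled Res. The labels give no agent, dose or duration for the resistance and do not say whether the resistant cells are 1 clone. Whether replicate libraries stem from separate cultures is not stated either, and p-values therefore reflect no more than how libraries of a group vary, possibly for technical reasons. The cell line field reads 92.1, 93.1, 94.1 and 95.1 over the 4 samples, while every title reads 92.1, and the titles were followed.

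Nearly all mitochondrial proteins are encoded in the nucleus and enter the organelle through these machines. The TOM complex in the outer membrane holds receptors and a channel, and precursors then pass to TIM23, which feeds the matrix, or to TIM22, which inserts carriers into the inner membrane with help from small TIM chaperones in the space between. Most SLC25A carriers are themselves clients of TIM22, and they exchange nucleotides, phosphate, amino acids, carboxylates and cofactors across the inner membrane. Exceptions include SLC25A17, a peroxisomal member, and SLC25A46, which sits in the outer membrane.

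FPKM, fragments scaled by transcript length and by library size, is a level per length. Levels can thus be compared between genes within a library only as far as the transcript lengths behind the FPKM hold. Those lengths are not known here. Summed FPKM ran from 282602 to 293481 over the libraries, and genes of mitochondrial DNA took 37.2% and 37.9% of it in parental cells, against 40.2% and 40.6% in resistant cells. All 10 melanocyte lineage markers had a value, and they summed to 2314 to 3057 FPKM per library, most of it TYRP1. Of these, 8 of 10 had a log2 fold change below 0 (median -0.49), beside 58.6% of all genes tested. At an unadjusted limma p under 0.05, 4 were lower in resistant cells (DCT, S100B, SOX10 and OCA2), beside 10.2% of all genes tested. The adjusted threshold was passed by 0 of 10. The lowest was DCT, an enzyme of pigment synthesis, at 4.88 and 5.46 FPKM in parental cells, against 0.486 and 0.517 FPKM in resistant cells (limma adjusted p = 0.0544). Among markers of other cells, the endothelial list had 0 of 6 genes with a value and the leukocyte list had CD68 and LCP1 but not PTPRC. That pair summed to 32.6 and 27.4 FPKM in parental cells, against 13.2 and 10.7 FPKM in resistant cells. The list for retinal pigment epithelium, with 3 of 5 genes valued, summed to 5.29 and 4.69 FPKM in parental cells, against 4.48 and 3.08 FPKM in resistant cells. The epithelial list summed to 3.12 and 3.91 FPKM in parental and 9.39 and 17.7 FPKM in resistant libraries, with 3 of 8 genes valued and EPCAM among those without a value. The fibroblast list, with 4 of 8 genes valued, summed to 5.94 and 6.90 FPKM in parental and 14.4 and 10.6 FPKM in resistant libraries. Genes are listed only where the higher group mean is at least about 0.501 FPKM. KRT8 and KRT19 (epithelial), COL1A2 (fibroblast) and TTR (retinal pigment epithelium) had parental means below that level. They are listed only through their resistant means, so they could only appear as higher. The part of these lists and of the mitochondrial DNA share in the results was not tested.

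No carrier and no import gene passed the test over all genes between parental and resistant cells. A gene entered the test with a mean of at least 1 FPKM, which 35 of 39 carriers and 25 of 25 import genes reached. The 4 carriers outside were SLC25A42 (mean 0.968 FPKM), SLC25A35 (0.762), SLC25A53 (0.515) and SLC25A21 (0.440), and the lowest inside was SLC25A29 (1.76). In limma, with Benjamini-Hochberg adjustment over 10271 genes, 0 of 60 members passed an adjusted p of 0.05, where 0.0584% of all genes did. The smallest adjusted p of a member was 0.115, for SLC25A4. At an unadjusted limma p under 0.05, 4 members were higher in resistant cells (SLC25A43, SLC25A5, TOMM6 and TOMM7) and 4 were lower (SLC25A4, TOMM40L, SLC25A23 and TIMM22). That is 4 of 60 members in each direction, beside 6.06% of all genes tested for higher and 10.2% for lower.

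Import genes leaned further to the lower side than carriers did, in 1 of the 2 resistant libraries. The median log2 fold change, resistant minus parental on the log2(FPKM + 1) scale, was -0.055 over 35 carriers, -0.17 over 25 import genes and -0.079 over all genes tested. Below 0 lay 23 of 35 carriers and 18 of 25 import genes, or 65.7% and 72.0%, beside 58.6% of all genes tested. The 2 groups of libraries did not overlap for 12 import genes that were lower in resistant cells (48%) and 10 such carriers (28.6%), beside 31.8% of all genes tested. They did not overlap for 2 import genes that were higher (8%) and 3 such carriers (8.57%), beside 19.1%. Set against the parental mean, resistant replicate 1 had a carrier median of 0.033 and an import median of -0.11, and resistant replicate 2 had -0.19 for both. Without resistant replicate 1 the difference between the 2 medians was thus close to 0, at -4.0e-05. With median-of-ratios scaling the carrier median was 0.021, on the other side of 0, and the import median -0.063, while that of all genes was 0.0088. Members are not replicates, so the difference between carriers and import genes has no p-value.

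**Figure D1:**
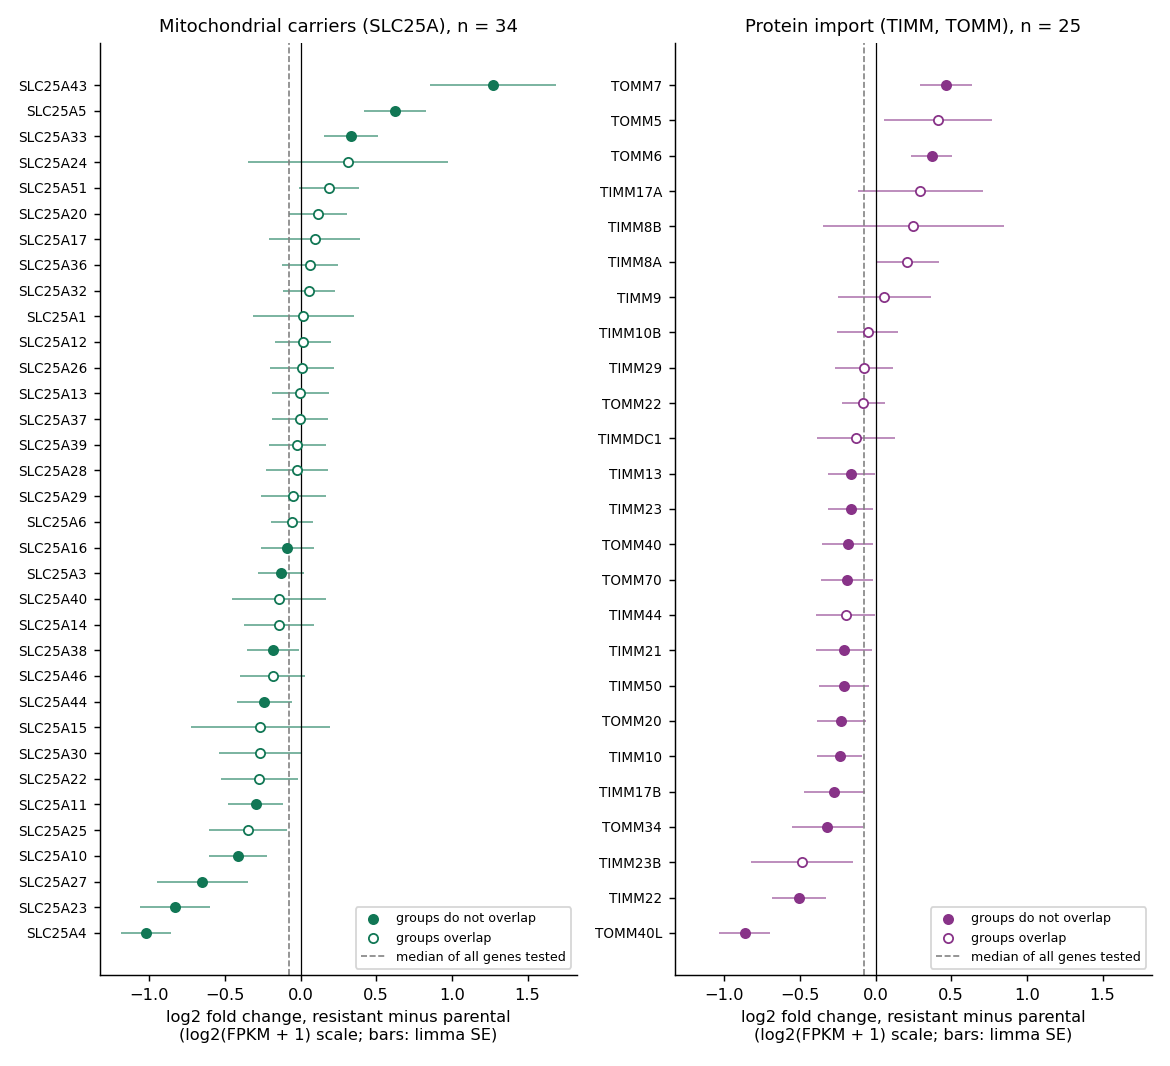
Log2 fold change (resistant minus parental, log2(FPKM + 1) scale) of 34 of the 35 tested carriers on the left and the 25 tested import genes on the right, with limma SE as bars. Filled points are genes whose parental and resistant libraries do not overlap, the dashed line is the median of all genes tested (-0.079), and SLC25A4 is lowest (-1.02) and SLC25A43 highest (1.27).

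Among other mitochondrial gene sets, 78 mitochondrial ribosomal protein genes had a median of -0.085 with 64.1% below 0, and 81 nuclear genes of oxidative phosphorylation had a median of 0.078 with 38.3% below 0. The 131 tested solute carriers outside SLC25A had a median of -0.0068. These values stand beside those of the carriers and import genes as a description, and the differences were not tested.

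The ADP/ATP carriers, which swap matrix ATP for cytosolic ADP, differed from each other. SLC25A4, the form known from heart and skeletal muscle, stood at 30.7 and 29.1 FPKM in parental cells, then at 15.1 and 13.4 FPKM in resistant cells. The resistant mean was 0.476 of the parental mean, and the groups did not overlap. The gene (ENSG00000151729.10_2) lies on chromosome 4 from 185143241 to 185150382 in GENCODE release 29 on GRCh38. Its log2 fold change of -1.02 ± 0.16 (SE) had a limma adjusted p of 0.115, so it did not pass. SLC25A5, the form known from growing cells, stood at 338 and 242 FPKM in parental cells, then at 487 and 400 FPKM in resistant cells. It was higher in both resistant libraries, with an SD of 68.3 FPKM between the parental pair and 61.3 FPKM between the resistant pair (log2 fold change 0.62 ± 0.21 SE, limma adjusted p = 0.265). Without parental replicate 2 its log2 fold change was 0.38. SLC25A5-AS1, a transcript of the other strand with no FPKM value, shares 15.1% of its exon bases. SLC25A6, the third form, stood at 157 and 144 FPKM in parental and 151 and 139 FPKM in resistant libraries, and the groups overlapped.

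Shares within a library do not depend on how libraries are scaled to each other. SLC25A4 made up 5.84% and 7.02% of the summed FPKM of the trio in parental cells, against 2.31% and 2.44% in resistant cells. The share of SLC25A5 was 64.3% and 58.3% in parental cells, against 74.6% and 72.5% in resistant cells. The FPKM ratio of SLC25A5 to SLC25A4 was 11.01 and 8.31 in parental cells, against 32.3 and 29.8 in resistant cells. In each of these shares and ratios the groups did not overlap. With 2 libraries a side, no exact permutation test can return a p below 0.333, and none is given. The sum of the trio was 526 and 415 FPKM in parental and 653 and 552 FPKM in resistant libraries.

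**Figure D2:**
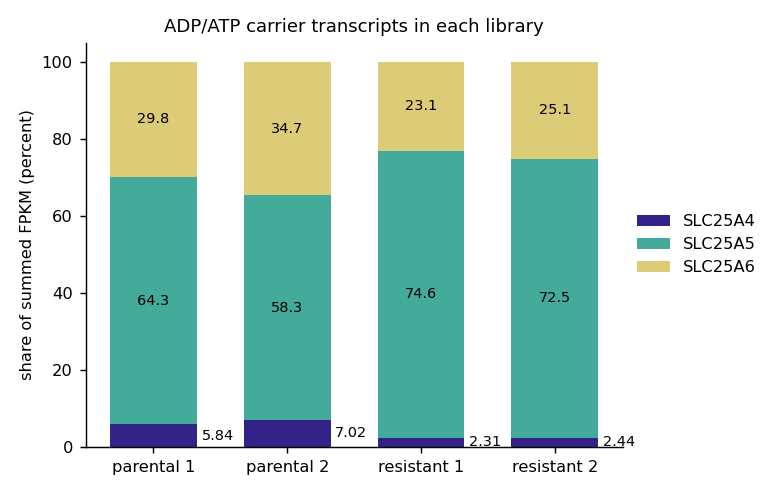
Share of each ADP/ATP carrier transcript in the summed FPKM of SLC25A4, SLC25A5 and SLC25A6, in percent, for each of the 4 libraries. The SLC25A4 segment is 5.84% and 7.02% in the parental bars and 2.31% and 2.44% in the resistant bars, and the SLC25A5 segment is larger in both resistant bars.

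The 3 coding sequences are similar, so reads of one form could be assigned to another. In GENCODE release 29 each is 894 bases long, and identity was 77.2% for SLC25A4 with SLC25A5, 77.9% for SLC25A4 with SLC25A6 and 78.7% for SLC25A5 with SLC25A6. The longest run of bases shared without a mismatch is shown for each pair, since a read longer than this run and lying in the coding sequence meets at least 1 difference.
SLC25A4 with SLC25A5, 14 bases: aaggacttcctggc
SLC25A4 with SLC25A6, 20 bases: ctgctgctgcaggtccagca
SLC25A5 with SLC25A6, 29 bases: atcgagcgggtcaagctgctgctgcaggt
No source used here states the read length. SLC25A5 and SLC25A6 also have 9 and 6 copies named after them elsewhere in the genome in the table of current names, and SLC25A4 has none there, so the levels of SLC25A5 and SLC25A6 are uncertain to that extent.

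SLC25A3, which brings phosphate into the matrix for ATP synthesis and also carries copper, stood at 58.5 and 61.9 FPKM in parental and 58.4 and 51.7 FPKM in resistant libraries. It was lower in both resistant libraries, the nearest values being 58.5 and 58.4 FPKM, and the log2 fold change was -0.13 ± 0.15 (SE, limma adjusted p = 0.706), or -0.22 without resistant replicate 1 and -0.043 without resistant replicate 2.

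The calcium-regulated ATP-Mg/phosphate carriers, which adjust the adenine nucleotide pool of the matrix, also differed from each other. SLC25A23 stood at 29.1 and 19.6 FPKM in parental cells, then at 13.4 and 12.6 FPKM in resistant cells (log2 fold change -0.83 ± 0.23 SE, limma adjusted p = 0.214). It was lower in both resistant libraries, and its parental libraries differed from each other more than its resistant ones did. SLC25A24 stood at 1.62 and 9.13 FPKM in parental and 3.99 and 7.25 FPKM in resistant libraries, so its parental pair enclosed the resistant pair. SLC25A25 stood at 7.63 and 5.54 FPKM in parental and 5.97 and 3.99 FPKM in resistant libraries, and the groups overlapped. Summed over the trio the level was 38.3 and 34.3 FPKM in parental and 23.4 and 23.8 FPKM in resistant libraries.

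Aspartate and glutamate carriers, part of the malate-aspartate shuttle, overlapped between the groups in 3 of 3 cases. The groups did not overlap for 51.0% of all genes tested. SLC25A13, the liver and general form of the aspartate-glutamate carrier, stood at 23.8 and 24.5 FPKM in parental and 27.4 and 21.3 FPKM in resistant libraries. SLC25A12, the form of brain and muscle, stood at 3.17 and 3.28 FPKM in parental and 3.59 and 2.97 FPKM in resistant libraries. SLC25A13 held 87.7% to 88.4% of the summed FPKM of the pair in the 4 libraries. The glutamate carrier SLC25A22 stood at 4.47 and 2.66 FPKM in parental and 2.44 and 2.98 FPKM in resistant libraries. The oxoglutarate carrier SLC25A11, the other arm of the shuttle, was lower in both resistant libraries, at 9.42 and 9.34 FPKM against 12.8 and 10.8 FPKM (log2 fold change -0.30 ± 0.18 SE, limma adjusted p = 0.462), or -0.18 without parental replicate 1. Its exons share 9.14% of their bases with RNF167 on the other strand (15.9 and 20.2 FPKM in parental, 13.2 and 8.29 FPKM in resistant libraries), and no source used here says whether counting used strand.

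Of the other carboxylate carriers, the dicarboxylate carrier SLC25A10 was lower in both resistant libraries, at 3.42 and 3.12 FPKM against 5.19 and 4.21 FPKM (log2 fold change -0.41 ± 0.19 SE, limma adjusted p = 0.357). A gene on the same strand with no FPKM value shares 46.6% of its exon bases, so its level is uncertain. The citrate carrier SLC25A1, which exports citrate for lipid synthesis, stood at 43.2 and 22.3 FPKM in the parental and 35.1 and 28.2 FPKM in resistant cells. Its parental pair enclosed the resistant pair.

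Iron and glutathione carriers did not separate the groups. The mitoferrins SLC25A28 and SLC25A37, which bring iron to the matrix, summed to 12.3 and 14.6 FPKM in parental and 13.3 and 13.1 FPKM in resistant libraries. SLC25A28 had a log2 fold change of -0.03 ± 0.20 and SLC25A37 of 0.00 ± 0.19 (SE). SLC25A39, a carrier of glutathione into mitochondria, stood at 33.6 and 31.6 FPKM in parental and 36.6 and 28.1 FPKM in resistant libraries. Its relative SLC25A40 stood at 6.18 and 5.87 FPKM in parental and at 7.52 and 3.77 FPKM in resistant libraries. Here the resistant libraries lay on both sides of the parental pair.

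Among carriers of nucleotides and cofactors the largest log2 fold change was that of SLC25A33, a pyrimidine nucleotide carrier, at 0.33 ± 0.18 (SE, limma adjusted p = 0.416). It stood at 12.1 and 11.3 FPKM in parental and 13.8 and 16.4 FPKM in resistant libraries, with no overlap, and its log2 fold change was 0.22 without resistant replicate 2. Its relative SLC25A36 stood at 14.8 in both parental libraries and at 17.3 and 13.8 FPKM in resistant cells. SLC25A51, the carrier of NAD into the matrix, stood at 4.63 and 3.71 FPKM in parental and 5.25 and 4.49 FPKM in resistant libraries, and the groups overlapped. The cofactor carriers SLC25A16, SLC25A17, SLC25A26 and SLC25A32 had log2 fold changes from -0.09 to 0.09, and SLC25A32 shares 69.7% of its exon bases with another gene on its strand. In this set SLC25A17, a peroxisomal member of the family, stood at 15.0 and 8.16 FPKM in resistant cells, either side of its parental 10.4 and 10.3 FPKM.

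Of the 5 other tested amino acid and carnitine carriers, 4 had a log2 fold change below 0, beside 58.6% of all genes tested, and the range was -0.27 to 0.11. SLC25A38, which serves haem synthesis as a glycine carrier, stood at 11.5 and 11.9 FPKM in parental and 10.7 and 9.72 FPKM in resistant libraries. SLC25A44, a carrier of branched-chain amino acids, stood at 8.06 and 8.72 FPKM in parental and 7.49 and 6.44 FPKM in resistant libraries. These 2 were lower in both resistant libraries, with limma adjusted p of 0.626 and 0.545, and their log2 fold changes of -0.18 and -0.24 were -0.12 and -0.14 without resistant replicate 2. SLC25A15, the ornithine carrier, stood at 6.40 and 7.23 FPKM in parental and at 9.48 and 3.02 FPKM in resistant libraries, so its resistant pair lay on both sides.

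The 3 carriers related to uncoupling proteins all had a log2 fold change below 0, beside 58.6% of all genes tested. SLC25A27 stood at 2.48 and 4.18 FPKM in parental and 2.30 and 1.22 FPKM in resistant libraries (-0.65 ± 0.30 SE, limma adjusted p = 0.354), with no overlap. Its log2 fold change was -0.36 without parental replicate 2 and also without resistant replicate 2. SLC25A14 and SLC25A30 overlapped between the groups, at -0.14 ± 0.23 and -0.27 ± 0.27 (SE). SLC25A46, a member that sits in the outer membrane and acts in mitochondrial shape, stood at 8.85 and 9.34 FPKM in parental and 9.33 and 6.62 FPKM in resistant libraries.

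SLC25A43, a carrier whose substrate is not settled, had the highest log2 fold change of all members. It stood at 1.52 and 1.51 FPKM in parental cells, then at 2.96 and 8.32 FPKM in resistant cells. Both resistant libraries were higher, and they differed from each other more than the lower of them differed from the parental pair. The log2 fold change was 1.27 ± 0.42 (SE, limma adjusted p = 0.261), and 0.65 without resistant replicate 2 or 1.89 without resistant replicate 1. SLC25A43 and SLC25A5 are neighbours on chromosome X in GENCODE release 29 on GRCh38, from 119399060 to 119454478 and from 119468400 to 119471319.

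**Figure D3:**
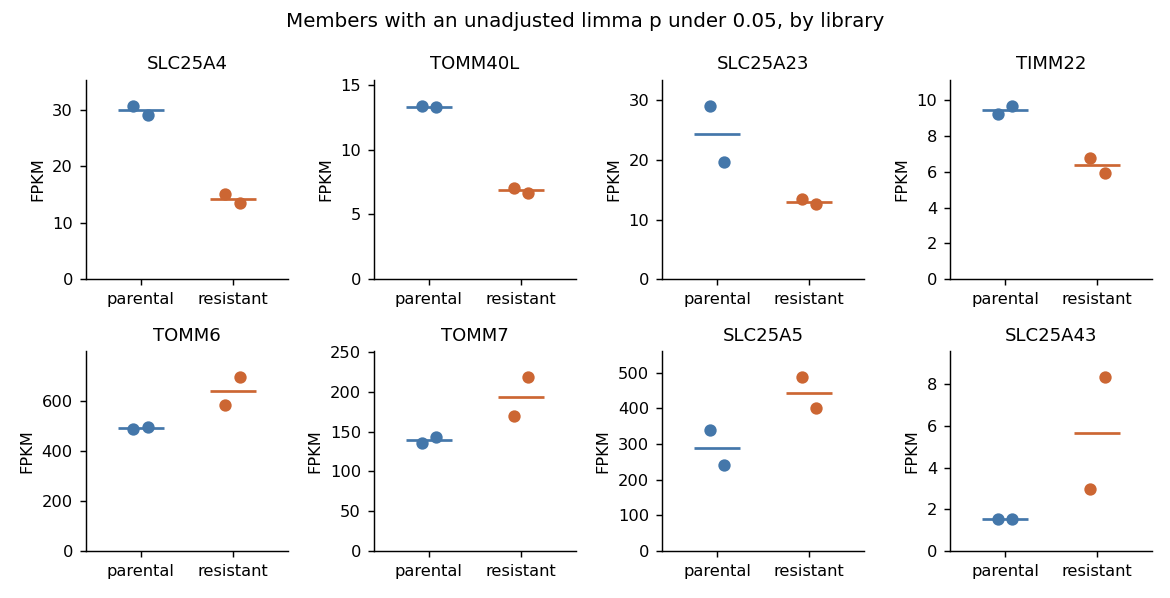
FPKM of the 8 members with an unadjusted limma p under 0.05, with 1 point for each library and a line at the group mean. Each axis starts at 0. The 2 resistant points lie below both parental points for SLC25A4, TOMM40L, SLC25A23 and TIMM22, and above them for TOMM6, TOMM7, SLC25A5 and SLC25A43, where the resistant SLC25A43 points are at 2.96 and 8.32 FPKM.

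Turning to import, the receptors and the channel of TOM all had a log2 fold change below 0, 5 of 5, and the small TOM subunits all had one above 0, 3 of 3. Of all genes tested, 58.6% lay below 0. With median-of-ratios scaling TOMM22 was at 0.023, on the other side of 0, and TOMM40 and TOMM70 were both at -0.09. TOMM20, a receptor for presequences, stood at 135 and 134 FPKM in parental and 128 and 103 FPKM in resistant libraries. TOMM70, a receptor for carriers and other proteins with internal signals, stood at 19.6 and 21.6 FPKM in parental and 19.0 and 16.9 FPKM in resistant libraries. TOMM22, the central receptor, stood at 95.5 and 104 FPKM in parental and 95.6 and 92.4 FPKM in resistant libraries. The channel TOMM40 stood at 13.0 and 11.8 FPKM in parental and at 10.8 FPKM in both resistant libraries. TOMM20, TOMM70 and TOMM40 were lower in both resistant libraries and TOMM22 overlapped, with log2 fold changes from -0.23 to -0.08 and limma adjusted p from 0.518 to 0.803. Without resistant replicate 2 the log2 fold change was -0.075 for TOMM20 and -0.11 for TOMM70. It was -0.38 for TOMM20 without resistant replicate 1 and -0.12 for TOMM70 without parental replicate 2. LNP1 shares 3.82% of the exon bases of TOMM70 on the other strand. It stood at 16.5 and 21.9 FPKM in parental and 9.40 and 6.45 FPKM in resistant libraries, and its part in the TOMM70 value was not tested.

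TOMM40L, a paralog of the channel protein, stood at 13.4 and 13.3 FPKM in parental cells, then at 7.05 and 6.68 FPKM in resistant cells. The replicates were close in both groups, and the resistant mean was 0.515 of the parental mean. The gene lies on chromosome 1 from 161225939 to 161230744 in the same annotation. Its log2 fold change was -0.87 ± 0.17 (SE, limma adjusted p = 0.141). The FPKM ratio of TOMM40 to TOMM40L was 0.967 and 0.892 in parental cells, against 1.53 and 1.61 in resistant cells. The ratio was thus higher in both resistant libraries. In parental cells it was close to 1, and which gene was the more abundant there depends on the transcript lengths behind the FPKM. Those lengths are not known. The coding sequences of the pair are 71.5% identical, with a longest shared run of 14 bases. The exons of TOMM40L share 20.1% of their bases with NR1I3 on the other strand, which had no FPKM value.

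The small TOM subunits steady the channel. TOMM6 stood at 486 and 497 FPKM in parental and 583 and 693 FPKM in resistant libraries (log2 fold change 0.37 ± 0.13 SE, limma adjusted p = 0.285). TOMM7 stood at 135 and 143 FPKM in parental and 170 and 218 FPKM in resistant libraries (0.47 ± 0.17 SE, limma adjusted p = 0.286). Both were higher in the 2 resistant libraries. TOMM5 stood at 14.5 and 30.3 FPKM in parental and 25.7 and 31.1 FPKM in resistant libraries, and the groups overlapped. Without resistant replicate 2 the log2 fold changes of TOMM6 and TOMM7 were 0.25 and 0.29. All exon bases of TOMM6 also belong to a second annotated gene on the same strand (AL365205.1, at 5.85 to 8.14 FPKM), so its level is uncertain.

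Transcript length moved with this result. The longest coding transcript is 637 bases for TOMM6, 778 for TOMM7 and 808 for TOMM5. Over the 183 tested genes of up to 800 bases the median log2 fold change was 0.25 and 75.4% lay above 0. Over the 977 genes from 800 to 1500 bases it was -0.03, and over the 3335 genes from 1500 to 3000 bases it was -0.12. TOMM6 and TOMM7 belong to the shortest class, and the part of transcript length in their values was not tested. TIMM10, at 680 bases, had a log2 fold change of -0.24 ± 0.15 (SE) in the other direction.

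**Figure D4:**
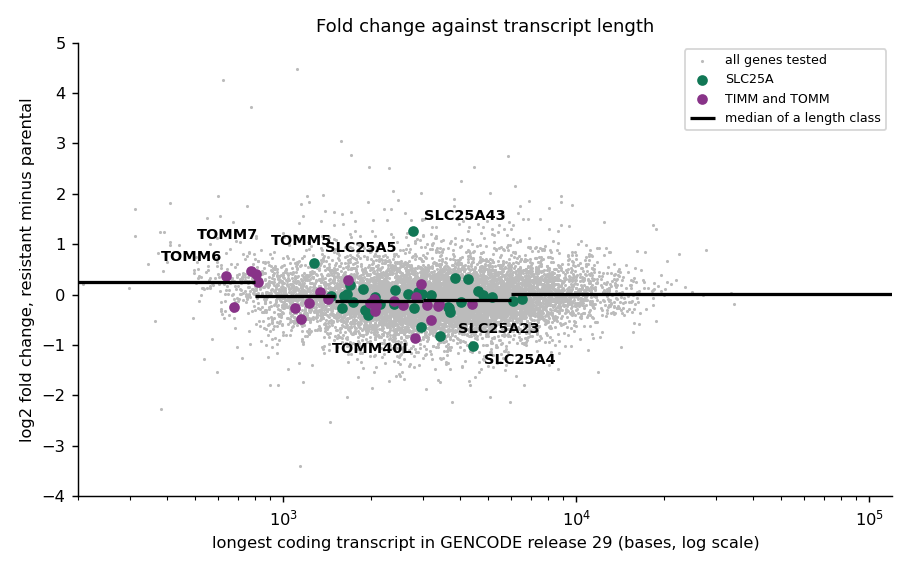
Log2 fold change (resistant minus parental) against the longest coding transcript in bases on a log axis, for all tested genes with such a transcript, with carriers in green and import genes in purple. Black lines are medians of length classes: 0.25 up to 800 bases, then -0.03, -0.12, -0.10 and 0.01. TOMM5, TOMM6 and TOMM7 sit at the short end, and SLC25A4, SLC25A23 and TOMM40L lie well below the medians of their length classes.

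The TIM23 translocase and the anchor of its motor had 6 of 7 members below 0 and none at an unadjusted limma p under 0.05. Of all genes tested, 58.6% lay below 0 and 16.2% had such a p. The channel protein TIMM23 stood at 81.1 and 77.9 FPKM in parental and 66.1 and 75.7 FPKM in resistant libraries. TIMM50, the receptor that takes over precursors, stood at 23.2 FPKM in both parental libraries and at 18.5 and 21.5 FPKM in resistant cells. TIMM21, which links TIM23 to TOM, stood at 7.53 and 9.02 FPKM in parental and 7.18 and 6.84 FPKM in resistant libraries. TIMM23, TIMM50, TIMM21 and TIMM17B were lower in both resistant libraries, with log2 fold changes of -0.27 to -0.17. Each moved by over 1.5 times with 1 library left out: to -0.07 for TIMM23 and -0.11 for TIMM50 without resistant replicate 1, to -0.11 for TIMM17B without resistant replicate 2 and to -0.091 for TIMM21 without parental replicate 2. In the other direction TIMM17B was at -0.43 without resistant replicate 1, TIMM23 at -0.26 without resistant replicate 2 and TIMM21 at -0.32 without parental replicate 1. TIMM44, which tethers the import motor, overlapped between groups at -0.20 ± 0.20 (SE).

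TIMM17A, the stress-sensitive form of a core TIM23 subunit, stood at 22.2 and 22.1 FPKM in parental and at 42.8 and 17.4 FPKM in resistant libraries. One resistant library was thus far above the parental pair and the other below it. Its paralog TIMM17B stood at 5.16 and 4.62 FPKM in parental and 4.44 and 3.36 FPKM in resistant libraries. TIMM23B, a near copy of TIMM23 with 95.9% identity over 564 aligned coding bases and a shared run of 109 bases, stood at 19.9 and 24.2 FPKM in parental and 21.6 and 10.9 FPKM in resistant libraries. Reads of TIMM23 and TIMM23B may be divided wrongly between them, and the sum of the pair was 100.98 and 102 FPKM in parental and 87.6 and 86.5 FPKM in resistant libraries.

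TIMM22, the channel protein of the translocase that inserts carriers, stood at 9.20 and 9.68 FPKM in parental cells, then at 6.77 and 5.95 FPKM in resistant cells. The gene lies on chromosome 17 from 997117 to 1003671. It was lower in both, with a log2 fold change of -0.51 ± 0.18 (SE, limma adjusted p = 0.280). ABR, which shares 4.82% of the exon bases of TIMM22 on the other strand, stood at 10.9 and 8.87 FPKM in parental and 5.20 and 4.00 FPKM in resistant libraries, and its part in the TIMM22 value was not tested. The partner TIMM29 stood at 4.74 and 4.05 FPKM in parental and 3.79 and 4.43 FPKM in resistant libraries. TIMM10B stood at 14.7 and 13.3 FPKM in parental and 15.5 and 11.7 FPKM in resistant libraries. TIMM29 and TIMM10B overlapped between the groups.

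Small TIM chaperones, which guide hydrophobic precursors across the intermembrane space, had 3 of 5 members above 0 and 2 below. None had an unadjusted limma p under 0.05. Of all genes tested, 58.6% lay below 0 and 16.2% had such a p. TIMM8B stood at 9.69 and 25.4 FPKM in parental and 11.5 and 30.8 FPKM in resistant libraries. TIMM9 stood at 23.4 and 37.2 FPKM in parental and 24.8 and 38.1 FPKM in resistant libraries. Replicate 2 was above replicate 1 in both groups for these 2 genes and for TOMM5, with a gap wider than that between the group means for TIMM8B and TIMM9. On the other strand, NKAPD1 shares 30.1% of the exon bases of TIMM8B, and KIAA0586 shares 14.9% of those of TIMM9. TIMM10, which forms rings with TIMM9, stood at 52.3 and 57.9 FPKM in parental and 45.1 and 47.9 FPKM in resistant libraries. TIMM13, the partner of TIMM8A, stood at 46.6 and 42.9 FPKM in parental and 41.6 and 38.3 FPKM in resistant libraries. LMNB2, on the same strand, shares 13.0% of the exon bases of TIMM13. TIMM10 and TIMM13 were lower in both resistant libraries, TIMM13 at a log2 fold change of -0.16 that was -0.10 without parental replicate 1 and also without resistant replicate 2, and TIMM8A overlapped at 12.3 and 15.4 FPKM against 18.03 and 14.3 FPKM.

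Of 2 genes that carry import symbols but act elsewhere, TIMMDC1, an assembly factor of respiratory complex I, stood at 25.4 and 41.3 FPKM in parental and 30.0 and 29.3 FPKM in resistant libraries. TOMM34, a cytosolic co-chaperone of precursors, stood at 25.9 and 24.9 FPKM in parental and 24.8 and 16.3 FPKM in resistant libraries. TOMM34 was lower in both resistant libraries, though its nearest values were 24.9 and 24.8 FPKM, and its log2 fold change of -0.32 was -0.033 without resistant replicate 2 and -0.60 without resistant replicate 1.

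Import genes with other symbols, from a list written by role, also held no gene past the test. Of 23 tested, 0 passed over all genes, 1 was higher and 3 were lower at an unadjusted limma p under 0.05, and the median log2 fold change was -0.077. These counts are 1 and 3 of 23, beside 6.06% higher and 10.2% lower over all genes tested. HSPA9, the mitochondrial HSP70 that pulls precursors into the matrix, stood at 111 FPKM in both parental libraries and at 91.3 and 68.1 FPKM in resistant cells (-0.49 ± 0.19 SE, limma adjusted p = 0.299). SAMM50, which inserts barrel proteins into the outer membrane, stood at 15.6 and 15.7 FPKM in parental and 11.7 and 8.92 FPKM in resistant libraries (-0.57 ± 0.20 SE, limma adjusted p = 0.275). Both subunits of the presequence peptidase were lower in both resistant libraries, PMPCA at 7.55 and 6.87 FPKM against 12.9 and 11.1 FPKM, and PMPCB at 17.6 and 12.8 FPKM against 21.3 and 21.8 FPKM. ROMO1, a small TIM23-associated protein, stood at 108 and 112 FPKM in parental and 143 and 170 FPKM in resistant libraries (0.50 ± 0.15 SE, limma adjusted p = 0.239). The co-chaperonin HSPE1 stood at 82.0 and 83.8 FPKM in parental and 97.4 and 122 FPKM in resistant libraries, while its partner HSPD1, the most abundant of the list, stood at 244 and 257 FPKM in parental and 207 and 218 FPKM in resistant libraries.

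Mitochondrial transporters outside the SLC25A symbols had 19 of 23 tested members below 0 (82.6%, beside 58.6% of all genes tested), a median of -0.15 and 0 past the test over all genes. At an unadjusted limma p under 0.05, ABCB8 and MICU3 were higher and ABCB6 was lower, which is 2 and 1 of 23 beside 6.06% and 10.2% of all genes tested. MICU3, a regulator of the calcium uniporter, stood at 4.32 and 5.17 FPKM in parental and 7.62 and 7.74 FPKM in resistant libraries. ABCB8 stood at 1.501 and 1.26 FPKM in parental and 2.57 and 2.41 FPKM in resistant libraries, and ABCB6, a porphyrin transporter, at 13.0 and 12.8 FPKM against 7.44 and 9.37 FPKM. Of the sideroflexins, a separate family of inner membrane carriers, SFXN2 and SFXN3 were lower in both resistant libraries, with log2 fold changes of -0.36 ± 0.17 and -0.51 ± 0.23 (SE). MTCH1, a distant relative of the carriers in the outer membrane, stood at 49.8 and 43.5 FPKM in parental and 39.7 and 32.7 FPKM in resistant libraries. The most abundant members were the pore VDAC1 (-0.14 ± 0.19 SE) and MTCH2 (-0.12 ± 0.15 SE).

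Of 11 tested regulators of mitochondrial biogenesis, 2 were lower at an unadjusted limma p under 0.05 0 were higher and 0 passed over all genes, beside 10.2% lower and 6.06% higher of all genes tested. NRF1, an activator of nuclear genes for mitochondrial proteins, stood at 5.63 and 3.40 FPKM in parental and 2.81 and 1.798 FPKM in resistant libraries (-0.73 ± 0.28 SE, limma adjusted p = 0.306). MYC stood at 8.23 and 7.85 FPKM in parental and 3.06 and 4.67 FPKM in resistant libraries (-0.91 ± 0.23 SE, limma adjusted p = 0.192). TFAM, which packages mitochondrial DNA, stood at 16.1 and 17.6 FPKM in parental and 18.1 and 24.95 FPKM in resistant libraries. It was higher in both resistant libraries (0.32 ± 0.21 SE). TFB1M was lower in both resistant libraries (-0.29 ± 0.17 SE), as were PPARGC1B (-0.37 ± 0.23 SE) and GABPB1 (-0.22 ± 0.19 SE), and YY1 differed by 0.03 ± 0.16 (SE).

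Promoters are shown for 3 members that were lower in both resistant libraries and for SLC25A5, which was higher in both. They were chosen after their values were seen and allow no comparison of motifs by direction. SLC25A23, SLC25A43, TOMM6 and TOMM7, also at an unadjusted limma p under 0.05, are not shown. Each is the stretch of 250 bases before the start site, 5′ to 3′ in the direction of the gene, from RefSeq on GRCh38.p14. Capitals mark every match, on either strand, to CCGGAAG (the core bound by ETS factors), GGGCGG (the GC box) and CCAAT (the CCAAT box).
SLC25A4 (chr4:185143016-185143265, plus strand): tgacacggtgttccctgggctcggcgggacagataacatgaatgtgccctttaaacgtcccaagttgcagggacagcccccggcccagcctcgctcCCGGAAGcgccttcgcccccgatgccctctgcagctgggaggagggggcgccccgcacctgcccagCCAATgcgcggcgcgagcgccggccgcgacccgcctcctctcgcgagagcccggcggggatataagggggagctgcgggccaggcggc
TOMM40L (chr1:161225810-161226059, plus strand): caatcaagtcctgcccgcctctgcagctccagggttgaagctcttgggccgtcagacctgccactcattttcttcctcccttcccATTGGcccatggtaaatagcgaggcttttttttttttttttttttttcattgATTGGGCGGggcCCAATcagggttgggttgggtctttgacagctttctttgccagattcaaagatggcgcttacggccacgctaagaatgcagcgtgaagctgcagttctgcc
TIMM22 (chr17:996879-997128, plus strand): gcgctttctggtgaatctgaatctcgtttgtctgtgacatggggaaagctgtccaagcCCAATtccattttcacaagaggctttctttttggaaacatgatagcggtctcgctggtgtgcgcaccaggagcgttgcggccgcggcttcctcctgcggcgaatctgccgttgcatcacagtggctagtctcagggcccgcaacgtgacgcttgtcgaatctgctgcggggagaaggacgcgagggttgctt
SLC25A5 (chrX:119468194-119468443, plus strand): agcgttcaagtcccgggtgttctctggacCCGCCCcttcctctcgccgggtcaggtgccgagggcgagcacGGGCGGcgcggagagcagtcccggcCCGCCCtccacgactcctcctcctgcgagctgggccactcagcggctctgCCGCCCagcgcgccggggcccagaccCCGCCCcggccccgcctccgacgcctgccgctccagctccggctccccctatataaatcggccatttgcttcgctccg
SLC25A4 holds 1 CCGGAAG, starting 154 bases before the start site, and 1 CCAAT at 88 bases. SLC25A5 holds 5 matches to GGGCGG and none to the other 2. TOMM40L holds 3 matches to CCAAT and 1 to GGGCGG, and 1 of the CCAAT matches overlaps the GGGCGG. TIMM22 holds 1 CCAAT at 192 bases. Among the members not shown, SLC25A23 (lower) held GGGCGG and CCAAT, SLC25A43 (higher) held GGGCGG, TOMM6 (higher) held CCGGAAG and TOMM7 (higher) held none of these.

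Over all members, 56 of 64 had a promoter in the RefSeq table. CCGGAAG lay in 10 of 23 import promoters (43.5%) and 7 of 33 carrier promoters (21.2%), beside 17.8% of 8390 promoters of tested genes and 8.79% of all 27305 promoters in the table. It lay in 23 of 69 promoters of mitochondrial ribosomal protein genes (33.3%). CACGTG, the E-box, lay in 6 carrier promoters (18.2%) and 1 import promoter (4.35%), beside 9.03% of promoters of tested genes and 6.33% of all. GGGCGG lay in 67.9% and CCAAT in 42.9% of member promoters, beside 68.4% and 35.6% of those of tested genes and 41.6% and 32.9% of all. TGACGTCA, GCATGCGC and TATAAA each lay in 2 member promoters (3.57%), beside 3.17%, 5.14% and 5.01% for tested genes and 1.74%, 2.77% and 11.3% for all. AAGGTCA lay in 0 of 56, beside 2.11% and 3.51%. Both strands were searched, motifs could overlap each other, and a match is a run of letters and not a measured binding site.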

How the data were processed

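RNA of 92.1 cells was sequenced in 2 parental and 2 resistant libraries. Per the labels' protocols, libraries were stranded (dUTP), after poly(A) enrichment or ribosomal RNA depletion, with no statement of which. The deposited unit is FPKM, computed by the authors, per the file headers. The build was hg38, per the submitters' processing notes. Of 11650 gene identifiers, however, 11551 carry a suffix such as _2, a form used by GENCODE lifted to GRCh37. The annotation behind the FPKM is thus not settled. No aligner, FPKM program, annotation or use of strand in counting is named in the sources used here. In every listed gene the higher of both group means was at least 0.501 FPKM, and genes under about that level carry no value.

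Identifiers were matched without version or suffix to a table of current symbols (11575 of 11650). Positions, lengths and exon overlaps are from GENCODE release 29, which may differ from the annotation behind the FPKM. FPKM are not counts, so depth is unknown. Low values of genes with 1 transcript gave no clear steps, with at most 3 to 5 genes in any window of 1% width.

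Values were taken as log2(FPKM + 1), and genes averaging 1 FPKM or more entered limma 3.58.1 under R 4.3.3, fitted two-sided with a variance trend and Benjamini-Hochberg adjustment over 10271 genes. Fold changes on this scale understate changes of low genes. On simulated data the test called 77% of 2-fold and 100% of 4-fold changes, and 3.28% of its calls were false. The simulated spread was smoothed over genes of similar level, which removes differences in spread between single genes. These rates may therefore not hold for the real data. Python 3.11.15 served for the tables. Alternatives numbered 13: pseudocount, filter, scaling, variance trend, replicate block and each library left out.

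Members, gene lists and motifs were chosen with earlier results of these data known. Values in each library are given for the members of the TOM, TIM23, TIM22, small TIM, ADP/ATP, calcium-regulated, aspartate and glutamate, iron, glutathione and carboxylate groups, for the members with the largest separated differences and for the 5 most abundant of each class. Partner genes named are up to 6 per list with the smallest p and the 2 most abundant. Other members named were chosen after their values were seen. The individual values of 1 tested carrier are not reported here, and it is counted in the totals.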

Additional observations from a re-analysis of the deposited data

How the results depend on the processing

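No member passed limma's adjusted p of 0.05 in any of the 13 alternatives, where the 8 members at an unadjusted p under 0.05 kept their direction in each alternative they were tested in. Adjusted p ran from 0.0587 to 0.534 for SLC25A4 and from 0.0587 to 0.696 for TOMM40L. Counts of genes called over all genes ran from 0 to 30 when 1 library was left out, against 6 with all (30 without either parental library, 1 without resistant replicate 1 and 0 without resistant replicate 2). With 1 library in a group, that library is assumed to vary like the others. The carrier median ran from -0.19 to 0.033 and the import median from -0.21 to -0.11 over these, and the import minus carrier difference from -0.14 to -4.0e-05. The import median was -0.22 at a common sum, -0.063 under median of ratios and -0.093 after quantile normalization, while the median of all genes was -0.12, 0.0088 and -0.0094. Over the alternatives, 28 of 60 members changed sign at least once, none of them among those 8. The groups of those 8 do not overlap, so only the scaling alternatives could have changed their direction. For these genes the other alternatives are no check of direction, and the 8 were picked from the same values. Of 27 members whose groups did not overlap, 18 moved by over 1.5 times with 1 library left out. The set of 8 at an unadjusted limma p under 0.05 also changed with the setting. At a common sum, under median of ratios and without a variance trend, 0 import genes were higher at that level, so TOMM6 and TOMM7 left it. With the replicate block 1 import gene was lower. Under quantile normalization, and with a minimum mean of 5 FPKM, 1 carrier was higher.

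The replicate number as a block left 5 genes called and 0 members, with an adjusted p of 0.175 for SLC25A4. Over all genes, replicates with the same number did not deviate together (correlation across genes -0.07). This value cannot show whether some genes moved together by replicate number, and that was not tested. Levels of low carriers, under about 2 FPKM, are the least certain.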

Other observations

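Around SLC25A43 and SLC25A5 on chromosome X, a window chosen after their values were seen, 13 genes with a value lay within 500 kb on either side. Apart from SLC25A43 and SLC25A5, whose values chose the window, 10 of them were tested. Of these 10, PGRMC1, UBE2A, RPL39 and NDUFA1 were higher in resistant cells with no overlap between groups, 0 were lower and 6 overlapped. On chromosome X as a whole, 66 of 353 tested genes (18.7%) were higher in this sense and 113 (32.0%) were lower, and no test was made of the window. UBE2A, a ubiquitin-conjugating enzyme, stood at 7.03 and 6.50 FPKM in parental and 10.8 and 18.2 FPKM in resistant libraries. NDUFA1, a subunit of respiratory complex I, stood at 179 and 199 FPKM in parental and 303 and 371 FPKM in resistant libraries (limma log2 fold change 0.83 ± 0.16 SE, adjusted p = 0.141). SLC25A43, UBE2A, RPL39, NDUFA1, UPF3B, NKAP and SEPTIN6 were higher in resistant replicate 2 than in resistant replicate 1. SLC25A5, LONRF3, PGRMC1, STEEP1, NKRF and RNF113A were lower there.

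PPARGC1A, a coactivator of mitochondrial biogenesis, lay under the filter and was not tested. With its parental mean below the level at which genes carry a value, it is listed only through its resistant mean, so it could only appear as higher. It stood at 0.173 and 0.278 FPKM in parental and 1.29 and 1.00 FPKM in resistant libraries, while its relative PPARGC1B stood at 4.80 and 4.14 FPKM in parental and 4.01 and 2.57 FPKM in resistant libraries.

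Resistant replicate 1 was above resistant replicate 2 for 27 of 35 carriers (77.1%) and 15 of 25 import genes (60.0%), beside 66.1% of all genes tested. SLC25A15, SLC25A17, SLC25A40 and TIMM17A, whose resistant libraries lie on both sides of the parental pair, follow this order, and SLC25A43 does not.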
